A study of Mus musculus with 8 samples.

Results

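L1Md_T is a family of young LINE1 retrotransposons of the mouse, and its copies of at least 5001 bp were followed here one by one. The members are the elements that the deposited repeat table assigns to L1Md_T and places off the random scaffolds. They number 4980 of the 17857 listed elements, and the 60 L1Md_T copies on random scaffolds, which held 0 reads, were left out. Member length ran from 5002 to 13492 bp with a median of 6070.5 bp, and 2594 members were at least 6000 bp long. The libraries were RNA sequencing of mouse embryonic stem (ES) cells, 1 library in each of 8 groups, with no replicate. The groups combined the J1 line or TKO, in which 3 DNA methyltransferases (DNMTs) are knocked out, with DAXX intact or knocked out, and with regular ES medium or the same medium plus 2i and vitamin C. The supplement held PD0325901 (1 µM), which inhibits MEK, CHIR99021 (3 µM), which inhibits GSK3b, and vitamin C (100 µg/ml), and was given for 72 hours. Below, "2i" stands for that supplemented medium and "DAXX-KO" for knocked-out DAXX. The genotype label of the J1 DAXX-KO cells reads WT, while their titles name the DAXX knockout, and the titles were followed. No source used here says how many clones each line represents.

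LINE1 elements are retrotransposons without long terminal repeats that copy themselves through an RNA intermediate, encoding an RNA-binding protein and a protein with endonuclease and reverse transcriptase activity. In the mouse, transcription starts at a 5' promoter made of repeated monomers, and the young families, L1Md_T, L1Md_A and L1Md_Gf, differ in monomer type. DNA methylation of this promoter is a known restraint on LINE1 transcription in ES cells and the germ line, and DAXX is a histone chaperone that works with ATRX to place the histone variant H3.3 at repeats and other heterochromatin.

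Library totals recovered from the table ran from 67.4 to 99.1 M reads, and RPKM are reads per kilobase of element and per M of that total. Reads in all listed repeats made up 8.28% to 19.3% of a library. Every member had reads in at least 1 library except 1, and 4951 members had a mean RPKM of at least 0.1 and were tested, against 29 below that level. Young copies of a family are much alike in sequence, and how the authors' counting treated reads that fit several copies is, in the sources used here, not given. The level of a single copy is therefore the level that the authors' counting gave it, and copies are not independent of each other. Gene names are not paired with the assembled loci, so neither the knocked-out genes nor ES cell markers were checked against the labels. In bulk RNA, fewer cells that transcribe an element and less RNA from each cell cannot be told apart.

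L1Md_T took a large share of the libraries and differed several-fold among them. Its reads made up 3.81% of the library in J1 regular and 3.64% in its 2i partner, and with DAXX knocked out 4.08% and 6.0%. Values of 4 libraries of a line are given below in this order: regular and 2i with DAXX intact, then regular and 2i with DAXX knocked out. In TKO they made up 8.41% and 5.21%, and with DAXX knocked out 3.94% and 2.32%. TKO regular thus stood highest and TKO DAXX-KO 2i lowest, and 4 libraries lay close together between 3.64% and 4.08%. Of all reads in listed repeats L1Md_T held 28.1% to 43.5%. The median member followed the same pattern, at 1.13, 1.11, 1.12 and 1.53 RPKM in the 4 J1 libraries and at 2.22, 1.35, 1.05 and 0.585 RPKM in the 4 TKO libraries. Within a library the upper quartile of members was 3.12 to 4.45 times the lower one, with the widest spread in J1 DAXX-KO 2i.

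**Figure D1:**
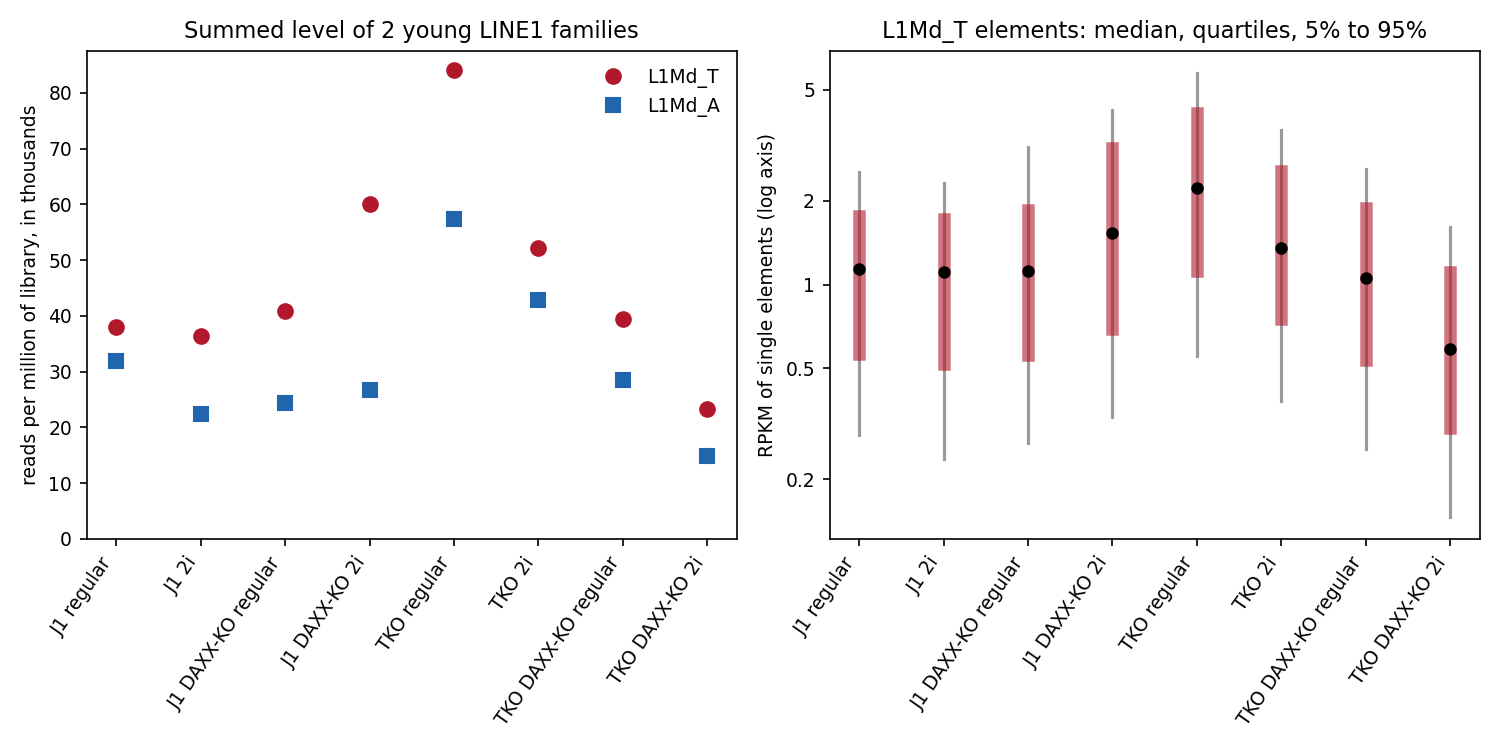
Left, summed level of L1Md_T and L1Md_A in reads per M reads of the library, divided by 1000, in each of the 8 libraries, 1 point a library. Right, RPKM of single L1Md_T elements on a log axis, with the median as a black point, the quartiles as a thick bar and the 5% to 95% range as a thin line. The highest L1Md_T value is in TKO regular, at 8.41% of the library, and the lowest in TKO DAXX-KO 2i, at 2.32%.

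The first question was what loss of DAXX does to L1Md_T in the presence and in the absence of DNMTs. In TKO the family stood with DAXX knocked out at 0.468 of the intact level in regular medium and at 0.445 in 2i. In J1 it stood at 1.07 times the intact level in regular medium and at 1.65 times in 2i. The sum over the family had a fitted fold of 0.458 within TKO with an adjusted p of 0.0764 in edgeR's quasi-likelihood test over 44 families, and of 1.38 within J1 with an adjusted p of 0.853. The difference between these effects was −1.59 on the log2 scale with an adjusted p of 0.110. None of these sums passed the threshold of 0.05. Scaled by TMM, the log2 change was −0.30 within TKO, 0.024 within J1 and −0.32 for the difference. Over the 4 pairs of libraries that differ only in DAXX, the log2 ratio was −0.36 ± 0.93 (SD, n = 4 pairs), above 0 in 2 of 4, and the fitted change over both backgrounds was −0.33 (edgeR, adjusted p = 0.664).

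Single copies lay nearly all on one side in TKO. With DAXX knocked out 4945 of the 4951 tested members were lower in regular medium and 4944 in 2i, and the middle 90% of members lay between log2 ratios of −1.30 and −0.63 in regular medium and between −1.40 and −0.64 in 2i. In J1 the members were divided in regular medium, where 2772 were higher and 2179 lower with a median log2 ratio of 0.027. In J1 2i 4739 were higher, and the middle 90% lay between 0.019 and 1.01. Member medians in TKO regular, TKO 2i, J1 regular and J1 2i were −1.03, −1.10, 0.027 and 0.60. Over all elements tested the medians were −0.98, −1.08, −0.049 and 0.43. The log2 ratios are of RPKM + 0.1, which understates the change of low copies. These are counts of copies in single libraries and carry no test.

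**Figure D2:**
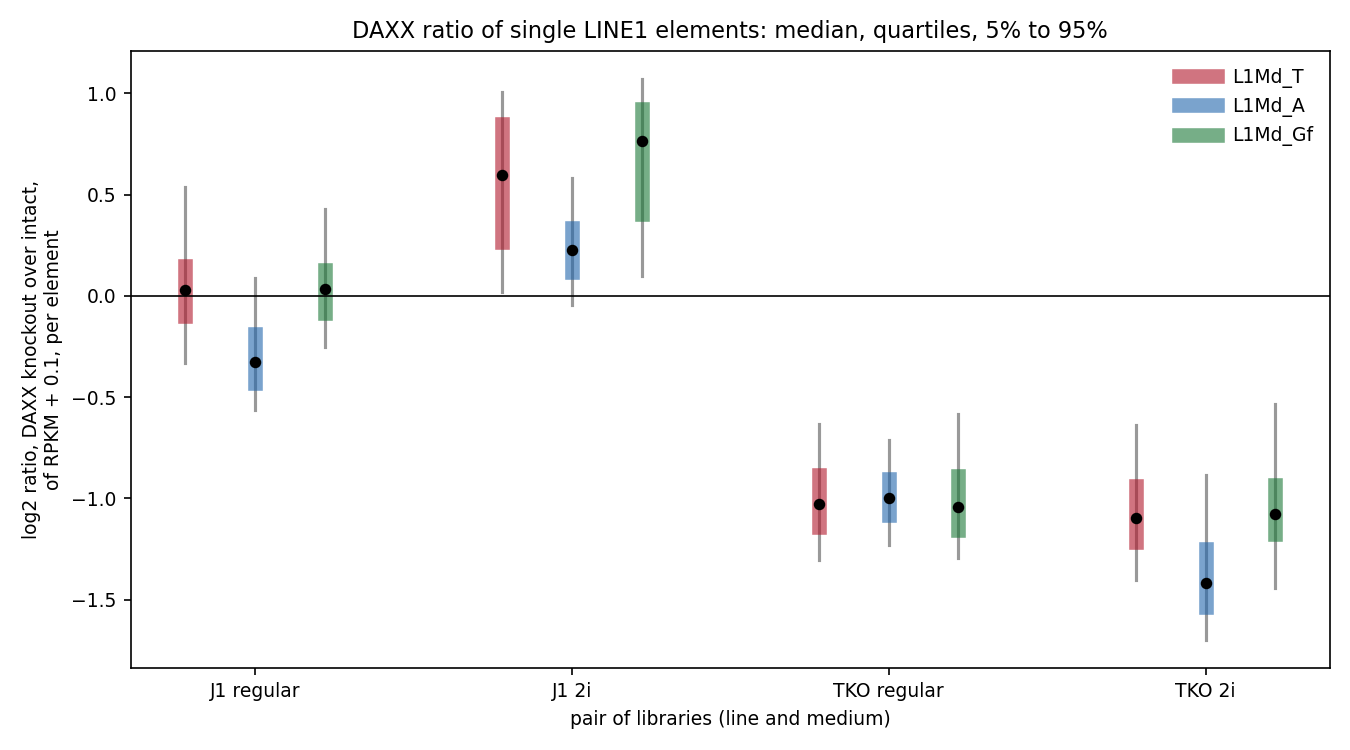
Log2 ratio of RPKM + 0.1 with DAXX knocked out over intact for single elements of L1Md_T, L1Md_A and L1Md_Gf, in each of the 4 pairs of libraries. Points are medians, thick bars quartiles and thin lines the 5% to 95% range. Both TKO pairs lie below 0 in the 3 families, and in J1 2i the L1Md_T median is 0.60 against 0.23 for L1Md_A.

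In the test of single elements within TKO, edgeR called 3000 of the 4951 members lower and 0 higher, with a median log2 change of −1.15 over the members and −1.18 over all 11322 elements tested. Of all elements 59.8% were called in either direction and 56.4% were called lower, and of the elements outside L1Md_T 53.2% were called lower, so the members' 60.6% lay near that background. All 3000 were lower in both media. The count depends on the filter on low levels, on single libraries and on the scaling, while the median change hardly moved with the filter. With a mean RPKM of at least 1, edgeR called 0 of 2888 members at a median of −1.15, with 2202 at an unadjusted p under 0.05, and with no filter it called 577 of 4979 (11.6%), also at −1.15. Of all elements 0.0306% and 9.69% were called in those fits. Leaving out TKO regular gave 0, J1 regular 1, J1 2i and TKO 2i 2 each, TKO DAXX-KO 2i 10 and TKO DAXX-KO regular 1017 (20.5%), against 16.7% of all elements. Without J1 regular 0.159% of all elements were called, so the fall in that fit was not particular to the members. The count of members was 4566 (92.3%) without J1 DAXX-KO regular and 4642 (93.8%) without J1 DAXX-KO 2i, near the 88.0% and 89.7% of all elements called in those fits. Scaling by TMM, which sets the typical listed repeat near 0, moved the median of all elements by 1.14 and left 4 members called higher and 5 lower, against 7.22% of all elements in either direction. Scaling by 9246 assembled loci matched in all libraries called 3758 lower and 0 higher, against 67.1% of all elements lower. That scaling takes the deposited FPKM to be per total fragments of each library, which was not checked.

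Members called with the largest falls within TKO, by the rule for named elements, were copies on chromosomes 5, 18 and 15. All positions are of mm9, as deposited. The copy on chromosome 5 from 59342953 to 59348146 was at 2.57 RPKM in TKO regular and 1.20 in TKO 2i, and with DAXX knocked out at 0.558 and 0.167. In J1 the 4 levels were 0.667, 0.357, 0.328 and 0.252 in the order used above. It was lower with DAXX knocked out in 4 of 4 pairs, which naming it for DAXX over both backgrounds (below) requires. The highest level of the 4 knockout libraries lay below that of all intact ones but J1 2i. Its log2 change was −2.47 within TKO (edgeR, adjusted p = 0.000216), lost without TKO regular or TKO 2i.

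This copy on chromosome 5 was also the 1 member called for DAXX over both backgrounds, where the log2 change was −1.61 (edgeR, adjusted p = 0.0270). Of all elements 6.77% were called in that comparison in either direction and 0.0618% were called lower. The call was lost when any 1 library other than J1 DAXX-KO 2i was left out. Without J1 DAXX-KO 2i 1396 members were called lower and 1 higher, or 28.2% against 37.7% of all elements, and without each of the other libraries 0 were called. In the fit without J1 regular 0 of all 11354 elements tested were called. Scaling by TMM moved the median of all elements by 0.44 and called 2 members higher and 4 lower, against 8.14% of all elements.

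A copy on chromosome 18 from 52194373 to 52199668 was at 1.65 RPKM in TKO regular and 1.15 in TKO 2i, and at 0.340 and 0.206 with DAXX knocked out. In J1 it was at 0.718 and 0.440 in regular medium and 2i, and at 0.896 and 0.946 with DAXX knocked out. The knockout thus went with lower levels in both TKO pairs and higher ones in both J1 pairs. Its change within TKO was −2.37 (edgeR, adjusted p = 0.000696), lost without J1 regular, TKO regular or TKO 2i. On chromosome 15 the copy from 75128181 to 75134237 was at 0.460 and 0.481 RPKM in TKO and at 0.142 and 0.0802 with DAXX knocked out, with a change of −2.12 (edgeR, adjusted p = 0.00473). That call was lost when any 1 of the DAXX-intact libraries was left out. In J1 this copy was at 0.269, 0.167, 0.208 and 0.216 RPKM, with no common direction.

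Within J1, edgeR called 4 members higher and 0 lower with DAXX knocked out, against 7.83% of all elements in either direction and 7.81% higher. The copy on the X chromosome from 111175907 to 111181397 was at 0.119 RPKM in J1 regular and 0.10 in J1 2i, and at 0.720 and 0.272 with DAXX knocked out. These levels rest on 50, 37, 313 and 137 reads. Its change was 2.04 (edgeR, adjusted p = 0.00116), lost without J1 regular or J1 2i. On chromosome 8 the copy from 38844216 to 38849400 was at 0.0979 and 0.0716 RPKM and at 0.363 and 0.195 with DAXX knocked out, on 25 to 149 reads. The copy on X from 87414125 to 87419349 was at 0.257 and 0.131 RPKM and at 0.324 and 0.584 with DAXX knocked out, on 46 to 280 reads. Their changes were 1.70 and 1.39 with adjusted p of 0.0159 and 0.0369 in edgeR. The first call was lost when J1 regular, J1 2i, J1 DAXX-KO regular or TKO 2i was left out, and the second when J1 regular, J1 2i, J1 DAXX-KO 2i, TKO regular or TKO 2i was. The change of the latter copy was 0.29 without J1 DAXX-KO 2i and 2.21 without J1 DAXX-KO regular. These 3 copies are low ones, well under the J1 regular median of 1.13 RPKM. The count of 4 was 0 without J1 regular or J1 2i, and 1770 (35.8%) without J1 DAXX-KO regular, where 26.5% of all elements were called. It was 2 when J1 DAXX-KO 2i, TKO regular or TKO 2i was left out. TMM moved the median of all elements by −0.25 and called 1 member higher and 1 lower, against 4.44% of all elements.

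The difference between the DAXX effects in TKO and J1 was tested itself, and edgeR called 10 members and 0.503% of all elements, all with the lower effect in TKO. At an unadjusted p under 0.05 were 3308 of 4951 members and 5420 of all 11322 elements. The copy on chromosome 18 had a difference of −3.10 with an adjusted p of 0.00394, that on X from 111175907 one of −2.91 with an adjusted p of 0.0260, and one on chromosome 7 from 33367424 to 33372879 one of −2.81 with an adjusted p of 0.0277. The chromosome 7 copy was at 0.253, 0.103, 0.261 and 0.355 RPKM in the J1 libraries in the order above, and at 0.313, 0.358, 0.148 and 0.0481 in the TKO libraries, on 20 to 178 reads. Its level with DAXX knocked out was above the intact level in both J1 pairs and below it in both TKO pairs. The count of 10 was 0 without J1 regular, J1 2i or TKO regular, 2 without TKO 2i, 174 without TKO DAXX-KO regular, 196 without J1 DAXX-KO 2i and 4531 without J1 DAXX-KO regular. In those last 3 fits 4.01%, 3.05% and 80.3% of all elements were called, against 3.51%, 3.96% and 91.6% of members. With matched-locus scaling it was 2195, against 29.1% of all elements lower. Under TMM, which moved the median of all elements by 1.41, edgeR called 0 members and 0.0% of all elements. At an unadjusted p under 0.05 in that fit were 102 members. DESeq2 called 2 members, 1 with the higher and 1 with the lower effect in TKO, against 0.230% of all elements.

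The second question was how L1Md_T differs between cells with and without DNMTs. With DAXX intact, TKO stood at 2.21 times the J1 level in regular medium and 1.43 times in 2i. With DAXX knocked out it stood at 0.964 of the J1 level in regular medium and 0.387 in 2i. The log2 ratio over the 4 pairs was 0.060 ± 1.07 (SD, n = 4 pairs), above 0 in 2 of 4, and the fitted change of 0.059 had an adjusted p of 0.970 in edgeR. Its sign turned under TMM (−0.36) and DESeq2 (−0.18). Of the tested members 4909 were higher in TKO than in J1 in regular medium and 4468 in 2i. With DAXX knocked out 3162 were higher in regular medium and 17 in 2i. Their median log2 ratios in these 4 pairs were 1.09, 0.54, 0.073 and −1.20. Over all elements tested the medians were 0.86, 0.64, 0.10 and −0.94, so the repeats as a whole shifted in the same direction.

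In the test of single elements edgeR called 1 member lower and 0 higher in TKO, against 0.609% of all elements in either direction and 0.0265% lower. It was the copy on chromosome 14 from 43645202 to 43651109. This copy was lower in TKO in 4 of 4 pairs, as the rule for named elements requires. Its levels were 5.37, 4.83, 8.72 and 6.65 RPKM in the J1 libraries and 2.44, 1.37, 0.682 and 0.738 in the TKO libraries, in the order above. The 2 groups of 4 libraries did not overlap, but these are the same libraries that gave the call. Its change was −2.43 (edgeR, adjusted p = 0.00285), lost without J1 DAXX-KO regular, TKO 2i or TKO DAXX-KO regular. Under TMM, which moved the median of all elements by −0.14, 3 members were called higher and 250 lower. These were 5.11% of members, against 2.89% of all elements in either direction. Of the 6371 elements outside L1Md_T, 17 were called lower there. Under DESeq2 6 members were called higher and 343 lower, or 7.05%, against 4.07% of all elements in either direction. Outside L1Md_T 26 were called lower. Without J1 DAXX-KO 2i edgeR on the library totals called 6 higher and 1 lower, against 1.04% of all elements, and without J1 DAXX-KO regular, TKO 2i or TKO DAXX-KO regular it called 0.

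A minority of members stood apart from the family in TKO against J1. The log2 ratio of TKO DAXX-KO regular over J1 DAXX-KO regular had a median of 0.073 over the members and a second, smaller peak, with 305 members between −2 and −1.25 and 64 between −1.25 and −0.75. A line drawn at −1, after the values were seen, put 343 members (6.93% of those tested) below it. The nearest values on either side were −1.02 and −1.0. For L1Md_A 9 of 3065 tested elements lay below the line, and for L1Md_Gf 2 of 113. Since this pair of libraries chose the 343 copies, their levels are a description with no test.

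The 343 copies were above the other tested members in J1 and closer to them in TKO. In J1 regular their median was 2.17 RPKM against 1.01 for the other members, and in J1 2i 1.60 against 1.06. With DAXX knocked out in J1 it was 3.39 against 0.981 in regular medium and 2.87 against 1.32 in 2i. All 4 J1 libraries thus had these copies higher. In TKO regular it was 2.32 against 2.22, and in TKO 2i 1.22 against 1.38. With DAXX knocked out in TKO it was 0.917 against 1.12 in regular medium and 0.694 against 0.573 in 2i. The gap between the sets was thus widest in J1 DAXX-KO regular. That library is in the pair that chose the copies, so a wide gap there follows in part from the choice. In the 2 pairs with DAXX intact, which did not choose the copies, the median log2 ratio of TKO over J1 was 0.14 against 1.12 in regular medium and −0.32 against 0.56 in 2i.

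The DAXX ratio of these copies in J1 regular was also apart, with a median of 0.56 against 0.010 for the other members, although its numerator is one of the libraries that chose them. In TKO regular, where the numerator is the other library that chose them, it was −1.25 against −1.01. In the 2i pairs, which did not choose them, it was 0.75 against 0.55 in J1 and −0.77 against −1.11 in TKO. The 343 copies lay on 21 chromosomes, with 10.8% on X against 9.61% of the other members. Of the members called lower in TKO under TMM, 241 of 250 were among them, and under DESeq2 336 of 343, in a contrast that holds the pair used to choose them.

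Part of the 343 copies shared a length. The commonest member length was 5413 bp, held by 42 members, and of the 112 tested members within 4 bp of it (5409 to 5417 bp) 81 were among the 343 copies. Members of those lengths made up 23.6% of the 343 copies and 0.673% of the other tested members. The 81 had a median of 1.97 RPKM in J1 DAXX-KO regular and 0.679 in TKO DAXX-KO regular, and the other 262 had 3.79 and 1.02. Their median log2 ratios were −1.43 and −1.75.

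**Figure D3:**
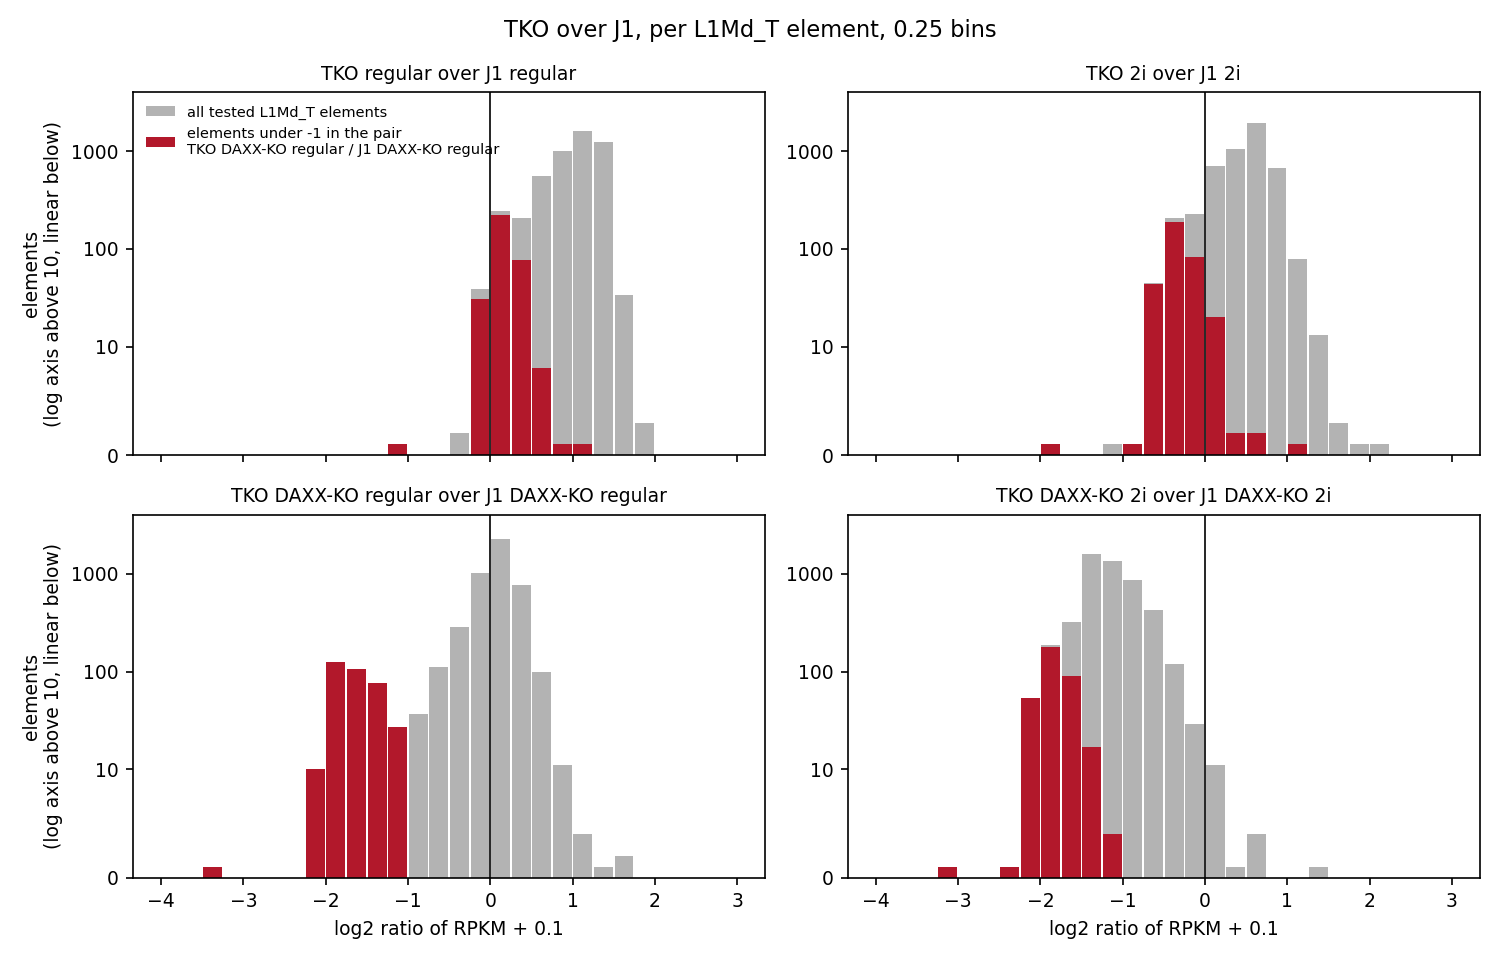
Number of tested L1Md_T elements by log2 ratio of RPKM + 0.1 in TKO over J1, in bins of 0.25, for the 4 pairs of libraries. Grey bars are all 4951 tested elements and red bars the 343 below −1 in the pair with DAXX knocked out in regular medium, and the vertical axis is logarithmic above 10. In the pairs with DAXX intact the red bars lie to the left of most of the grey ones.

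The third comparison was of 2i plus vitamin C with regular medium. In J1, L1Md_T stood in 2i at 0.957 of the regular level with DAXX intact and at 1.47 times it with DAXX knocked out. In TKO it stood at 0.620 and 0.590 of the regular level. The log2 ratio over the pairs was −0.24 ± 0.62 (SD, n = 4 pairs), above 0 in 1 of 4, and the fitted change of −0.20 had an adjusted p of 0.846 in edgeR. In TKO 4904 of 4951 members were lower in 2i with DAXX intact and 4894 with DAXX knocked out. In J1 3065 were lower with DAXX intact, and 4342 were higher with DAXX knocked out. Their median log2 ratios in these 4 pairs, in that order, were −0.63, −0.67, −0.064 and 0.47. Over all elements tested the medians were −0.49, −0.64, −0.16 and 0.28. TMM moved the median of all elements by 0.23 and turned the sign of the family's change, to 0.045.

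EdgeR called 2 members lower in 2i and 0 higher, against 5.21% of all elements in either direction and 4.72% lower. The copy on chromosome 3 from 6299058 to 6312550 is the longest member, at 13492 bp. In regular medium it was at 11.5 RPKM in J1 and 19.5 in TKO with DAXX intact, and at 10.4 and 11.1 with DAXX knocked out. In 2i these 4 values were 2.81, 6.53, 4.31 and 2.51. All 4 regular values lay above all 4 values in 2i, in the same libraries that gave its call. Its change was −1.68 (edgeR, adjusted p = 0.00296), lost without either J1 regular-medium library, TKO regular or J1 2i. On chromosome 1 the copy from 124568339 to 124574538 was at 1.77, 5.83, 1.40 and 4.19 RPKM in regular medium and at 0.553, 1.69, 0.808 and 0.563 in 2i, in the same order. It was lower in 4 of 4 pairs, as the rule for named elements requires. Its change was −1.69 (edgeR, adjusted p = 0.0416), and the call was lost when any 1 library other than J1 DAXX-KO 2i was left out. Leaving out J1 DAXX-KO 2i raised the count from 2 to 18, or 0.364% of members against 7.09% of all elements, and leaving out any other library gave 0 or 1. Without J1 regular it was 0, against 0.590% of all elements. With the cell line as a block the count was 6, against 7.23% of all elements.

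Against L1Md_A, the other large young family, L1Md_T had more reads in all 8 libraries, summed over 4980 copies against 3131. Per copy and length the order was mostly the other way, with the L1Md_A median above the L1Md_T median in every library except J1 DAXX-KO 2i. It was 1.47 against 1.13 RPKM in J1 regular and 2.65 against 2.22 in TKO regular, while in J1 DAXX-KO 2i it was 1.33 against 1.53. In J1 the ratio of L1Md_T to L1Md_A reads was 1.19 and 1.62 in regular medium and 2i with DAXX intact, and 1.67 and 2.25 with DAXX knocked out. In TKO it was 1.47 and 1.22 in regular medium and 2i, and 1.38 and 1.56 with DAXX knocked out. J1 regular had the lowest ratio and J1 DAXX-KO 2i the highest, and the J1 values spanned those of TKO. The log2 ratio differed by 0.31 for DAXX knockout, −0.23 for TKO and 0.19 for 2i. In exact two-sided permutation tests of 4 libraries against 4 these gave p of 0.171, 0.314 and 0.429, and 0.386, 0.478 and 0.482 after adjustment over 9 tests of 3 ratios and 3 factors. The smallest p such a test can give is 0.0286. Read sums of L1Md_T were 43.3 to 49.1 times those of the 124 L1Md_Gf elements, and the median L1Md_T element was at 0.891 to 1.05 times the median L1Md_Gf element. In the test within TKO 2187 of 3065 L1Md_A and 63 of 113 L1Md_Gf elements were called lower, in the same direction as the 3000 members.

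Level followed member length in steps rather than steadily. Members of 5000 to under 5400 bp (1123) had a median of 0.691 RPKM in J1 regular, and those of 5400 to under 5900 bp (1166) a median of 1.52. Those of 5900 to under 6400 bp (1416) were back at 0.614, and those of 6400 bp or more (1275) at 1.62. In TKO regular the 4 medians were 1.42, 3.39, 1.23 and 3.67 RPKM. Members of 6400 bp or more stood at 2.64 to 3.65 times the band just below them in each of the 8 libraries, with the largest ratio in J1 DAXX-KO 2i, and members of 5400 to under 5900 bp at 2.13 to 2.78 times the shortest band. Band limits were drawn after the values were seen, so no test was made. Within the bands the 100 bp bin from 6000 to under 6100 bp was an exception, at 1.05 RPKM in J1 regular between neighbours at 0.537 and 0.472.

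**Figure D4:**
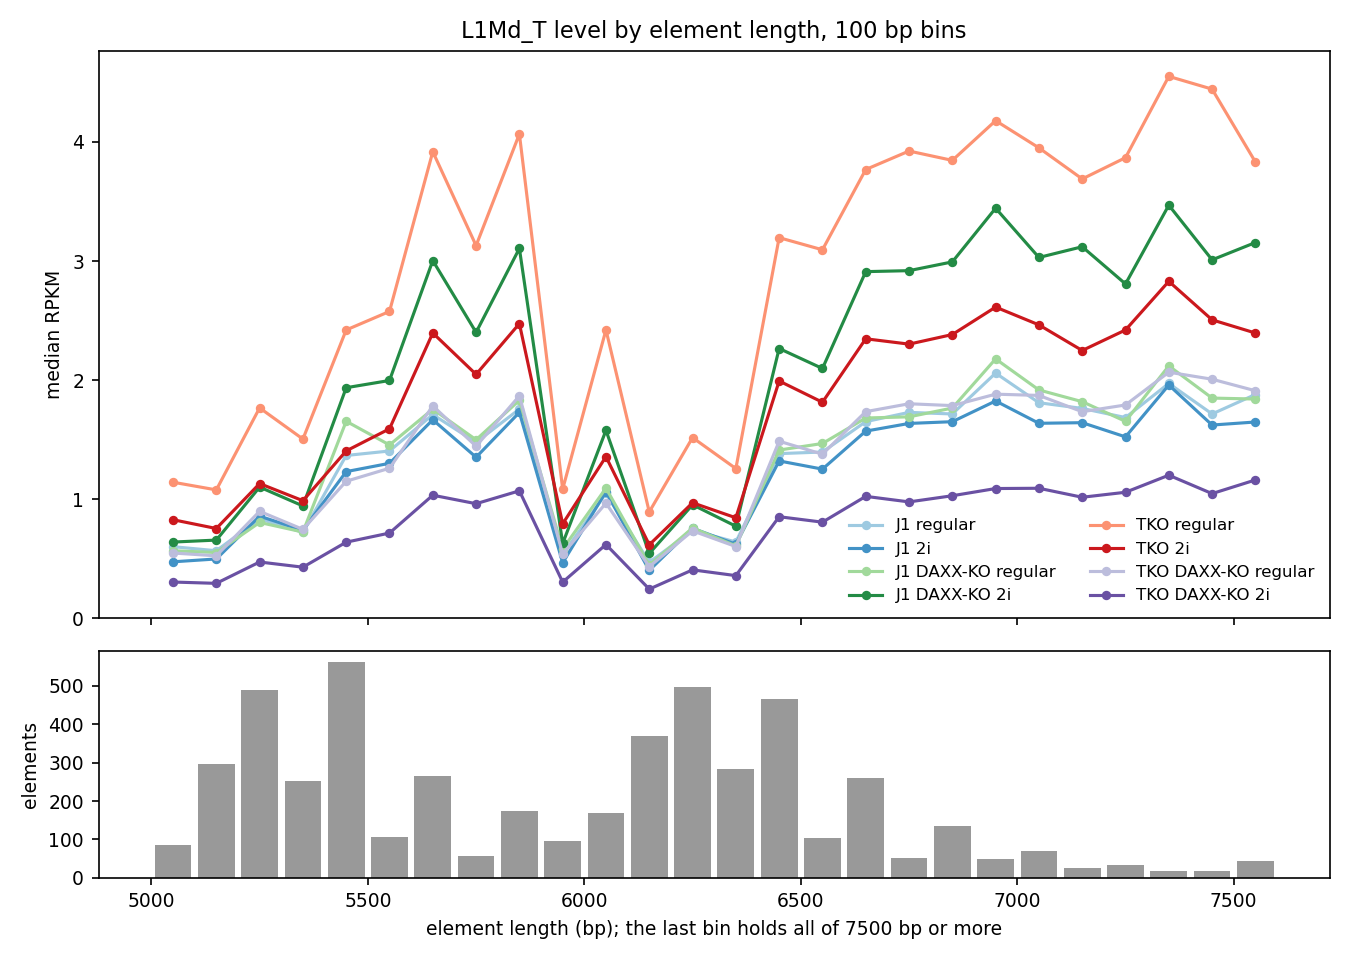
Top, median RPKM of L1Md_T elements in 100 bp bins of length, 1 line for each of the 8 libraries. Bottom, number of elements in each bin. All 8 libraries share the low stretches under 5400 bp and between 5900 and 6400 bp, apart from a higher bin at 6000 to under 6100 bp.

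A single limit of 6000 bp averaged these steps out. Mean RPKM of members of at least 6000 bp was 1.00 to 1.03 times that of shorter ones in the 8 libraries. The log2 ratio was 0.021 higher with DAXX knocked out, positive in 4 of 4 pairs, with an exact two-sided permutation p of 0.0286 and an adjusted p of 0.257. For TKO and for 2i it differed by 0.0010 and −0.0097, with exact permutation p of 0.886 and 0.371. The bands responded unlike in size in J1 2i, where the median log2 DAXX ratio was 0.40, 0.75, 0.42 and 0.81 from the shortest band to the longest. In TKO 2i it was −1.11, −1.08, −1.07 and −1.11, within a narrow range.

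Most members lay outside the loci that the authors assembled from the same reads. A member counted as inside where 1 assembled locus held all of it. In all 8 libraries 189 members (3.80%) were inside and 4436 (89.1%) overlapped no locus in any library, and 355 were mixed. Per library 259 (J1 regular) to 335 (TKO regular) members were inside. The holding loci were long, with a median of 157 kb and quartiles of 93.1 and 265 kb, and 186 of the 189 members lay in loci at least 3 times their own length in all libraries. No gene names are paired with these loci, so whether a member lies in an intron, an exon or a UTR was not examined.

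Members inside loci had mean RPKM 1.53 to 1.80 times those outside, in each of the 8 libraries. Because loci are assembled where reads are, this level gap itself was not tested. The ratio was 1.54 and 1.59 in J1 regular and 2i, 1.53 and 1.61 with DAXX knocked out, 1.53 and 1.60 in TKO, and 1.62 and 1.80 in TKO with DAXX knocked out. Its log2 value differed by 0.066 for DAXX knockout, 0.060 for TKO and 0.082 for 2i, with exact two-sided permutation p of 0.171, 0.343 and 0.114 and adjusted p of 0.386, 0.478 and 0.386. The 2i value was above the regular one in 4 of 4 pairs. The gap lay mostly in the length bands of low level. In TKO regular members under 5400 bp or of 5900 to under 6400 bp had medians of 2.49 RPKM inside and 1.26 outside, and those of the other two bands 3.90 and 3.51. In TKO DAXX-KO 2i the low bands were at 0.831 inside and 0.346 outside, and the high bands at 1.16 and 0.948.

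In the test of DAXX within TKO, 56 of 189 inside members (29.6%) and 2765 of 4407 tested outside members (62.7%) were called lower, against 56.4% of all elements. The medians of the log2 change were −1.04 and −1.16. The difference between inside and outside in this share was not tested, and the shares rest on the same single libraries as the count of 3000.

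The 5 members of highest mean RPKM did not all follow the family. The first, on chromosome 1 from 12652933 to 12658616, overlapped a locus in 8 libraries and was inside none. It was at 116, 115, 114 and 199 RPKM in the J1 libraries and at 271, 171, 139 and 88.6 in the TKO libraries. It held 1.59% to 2.17% of all L1Md_T reads, and its order of libraries was close to that of the family. Its change with DAXX within TKO was −0.96 (edgeR, adjusted p = 0.0347), lost without TKO regular, TKO DAXX-KO 2i or either J1 library with DAXX intact. The second, on chromosome 12 from 78505849 to 78512288, was the highest one inside a locus, with locus levels of 4.52 to 16.3 FPKM. It was at 39.2, 46.2, 45.6 and 85.9 RPKM in J1 and 110, 74.8, 53.1 and 39.7 in TKO, and its change within TKO was −0.99 (edgeR, adjusted p = 0.0432). Leaving out J1 regular, J1 2i or any 1 TKO library but TKO 2i ended that call.

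The highest member outside loci, on chromosome 13 from 9831266 to 9837911, went the other way. It was at 20.2 RPKM in J1 regular, 11.6 in J1 2i, 23.2 in TKO regular and 22.9 in TKO 2i, and with DAXX knocked out at 34.6, 26.9, 47.5 and 35.5. All 4 knockout libraries lay above all 4 intact ones, with ratios of 1.71, 2.33, 2.05 and 1.55. Its log2 change was 0.90 (edgeR, adjusted p = 0.0767), so it did not pass the threshold. Left out in turn, single libraries gave changes of 0.79 to 1.03 and adjusted p of 0.0437 to 0.448, under 0.05 without J1 DAXX-KO 2i and above it without any other.

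Next by level, a copy on chromosome 5 from 36580433 to 36587572, was at 4.70, 4.598, 4.35 and 14.7 RPKM in J1 and 17.2, 8.58, 9.84 and 5.29 in TKO. It lay inside a locus in 4 libraries, and none of its comparisons was called. The fifth was the longest member on chromosome 3, described above for its fall in 2i. The shortest member, of 5002 bp on chromosome 2 from 133064995 to 133069997, was below the family's median in all 8 libraries, at 0.596 RPKM in J1 regular and 1.80 in TKO regular. With DAXX knocked out in TKO it was at 0.778 and 0.367 against 1.80 and 1.08, a change of −1.35 (edgeR, adjusted p = 0.0386) that was lost when TKO DAXX-KO 2i or any 1 DAXX-intact library was left out.

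**Figure D5:**
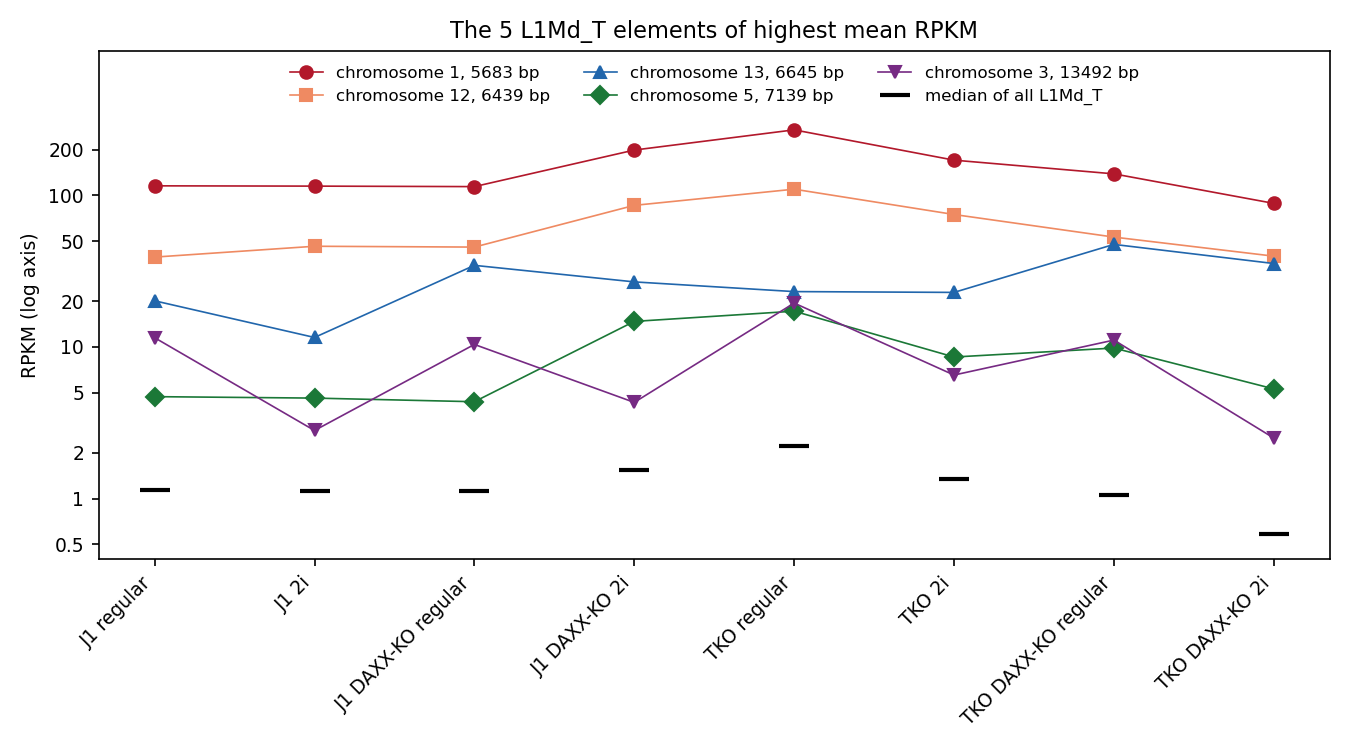
RPKM on a log axis of the 5 L1Md_T elements of highest mean RPKM in each of the 8 libraries, labelled by chromosome and length, with the median of all L1Md_T elements as black bars. Lines join the values of 1 element and imply no order. The chromosome 13 element is higher in each DAXX-KO library than in its intact partner, and the chromosome 3 element is lower in each 2i library.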

How the data were processed

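The samples were 8 libraries of cytoplasmic RNA captured with oligo-dT and made into cDNA with dUTP, as the labels' protocols say. Per the submitters' processing notes, which give neither role nor order, the tools were Cufflinks, Cuffdiff, TopHat and Bowtie2 2.2.4, and the build was mm9. A table of repeats gives whole-number read counts and RPKM of each element in each library, both by the authors, per the file headers. The deposited loci carry FPKM per library. The members and lists were chosen with earlier results of these data known.

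Library totals were recovered from deposited count and RPKM, and recomputed RPKM lay within 0.0051 of the deposited value for 100% of elements. Counts were tested in edgeR 4.0.16 (quasi-likelihood, R 4.3.3) on these totals, over all 11322 elements off random scaffolds with a mean RPKM of at least 0.1, and over 44 families with a mean of at least 1 RPM. All were two-sided, and p-values were adjusted after Benjamini and Hochberg, with a threshold of 0.05. Models of 1 factor had the remaining 2 as covariates (4 residual degrees of freedom), and DAXX within each background with 3. With no replicate, the spread is the residual over all libraries and holds interactions as well as noise. Each line is used in both media, so p-values carry nothing on how independent lines of one genotype vary.

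Alternatives were TMM, DESeq2 1.42.0, scaling by 9246 of 9274 loci matched at 50% reciprocal overlap (shifts of −0.046 to 0.066 log2), filters, limma 3.58.1, the cell line as a block, and the omission of each library. The scaling by loci takes FPKM to be per total fragments of a library. Had the FPKM been scaled across libraries beforehand, small shifts would follow from that, so this scaling cannot check the library totals. Ratios were tested by exact permutation over libraries. These tests had no covariates and did not use the pairs, so the other factors add to their spread. Named elements were the 5 of highest mean RPKM, up to 3 called each way per comparison with the same sign in every pair, the longest, the shortest and the highest inside and outside loci. Whether positions start at 0 or 1 is not given in the sources used here. Gene annotation and sequence of mm9 were not used here. The edgeR fit was checked on simulated counts of independent elements with a constant dispersion and no shift shared by a library. Copies here are not independent, so that check does not cover the counts called in these data. Python 3.11.15 and pandas 2.3.3 were used.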

Additional observations from a re-analysis of the deposited data

Results flagged for a closer look

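In the fit on library totals the DAXX knockout effect on L1Md_T had opposite signs in the 2 backgrounds, which is why the following values are given. The sign of the fitted change in J1 rests on 1 library, since the family change of 0.46 there was −0.14 without J1 DAXX-KO 2i. The J1 regular pair, which does not hold that library, had a ratio of 1.07. Under TMM the fitted change in J1 was 0.024. The difference was not particular to L1Md_T, with −1.66 for the L1Md_Gf sum and a median of −1.41 over all elements. For the family sum both J1 pairs had ratios above 1 (1.07 and 1.65) and both TKO pairs ratios below 1 (0.468 and 0.445), and the fitted difference of TKO minus J1 was −1.59 on the log2 scale with an adjusted p of 0.110 in edgeR, past no threshold. Of single members 10 passed the test of this difference, against 0.503% of all elements. Named among them are the copies on X from 111175907 (−2.91) and from 87414125 (−2.60), on chromosome 8 from 38844216 (−2.71), on chromosome 18 from 52194373 (−3.10) and on chromosome 7 from 33367424 (−2.81). Their adjusted p in edgeR were 0.0260, 0.0260, 0.0411, 0.00394 and 0.0277. All 5 calls were lost when any 1 DAXX-intact library was left out. Those on X from 111175907 and on chromosome 8 were also lost without TKO DAXX-KO regular, that on X from 87414125 without J1 DAXX-KO 2i and that on chromosome 7 without TKO DAXX-KO 2i.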

How the results depend on the processing

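The labels give no replicate numbers, so no fit had a replicate block, and pairs are libraries that differ in 1 factor only. For the medium the cell line served as a block, which gave 6 members called in place of 2 and a family change of −0.24. That fit called 7.23% of all elements. Counts of members called, in the order DAXX, TKO, medium, DAXX in J1, DAXX in TKO and their difference, were 1, 1, 2, 4, 3000 and 10. TMM gave 6, 253, 2, 2, 9 and 0, and DESeq2 8 (7 higher), 349, 8, 5, 14 (10 higher) and 2. A mean RPKM of at least 1 left 2888 members tested. EdgeR then called 0 for DAXX, 0 in J1, 0 in TKO and 0 for the difference. At an unadjusted p under 0.05 were 1, 5, 2202 and 2083 members. The shares of all elements called were 8.58%, 9.59%, 0.0306% and 0.0%. No filter gave 1 for the medium, 577 in TKO and 20 for the difference, against 3.51%, 9.69% and 1.07% of all elements. Matched-locus scaling gave 2195 for the difference, against 29.2% of all elements in either direction. Limma gave 2 for DAXX, 2 in J1 and 6 for the difference, against 6.70%, 7.79% and 0.362% of all elements. Limma on log2(RPKM + 1) gave 1 in J1 and, for the difference, 0 (3097 at an unadjusted p under 0.05). It called 7.18% and 0.00883% of all elements. Without single libraries the counts ran from 0 to 1397, 0 to 7, 0 to 18, 0 to 1770, 0 to 4642 and 0 to 4531. The shares of all elements at these upper ends are given above. The count of 7, without J1 DAXX-KO 2i, was mostly higher.

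Family changes without single libraries ran from −0.75 to −0.020, −0.25 to 0.43, −0.65 to 0.14, −0.14 to 0.93, −1.51 to −0.79 and −2.05 to −0.99. The change in TKO passed the threshold without J1 DAXX-KO regular (−1.13, adjusted p 0.0254) or J1 DAXX-KO 2i (−1.13, 0.0284), and the difference without J1 DAXX-KO regular (−2.05, 0.0217), in edgeR. The change for TKO was −0.36 under TMM, −0.18 under DESeq2, −0.25 without J1 regular, −0.12 without J1 2i and −0.21 without TKO regular. That for the medium was 0.045 under TMM, 0.025 under DESeq2, 0.14 without TKO regular and 0.080 without TKO DAXX-KO 2i. That in J1 was −0.14 without J1 DAXX-KO 2i. The ratio of members of at least 6000 bp to shorter ones, near 0 throughout, turned for 2i with medians (0.0094) and a limit of 5500 bp (0.0037), and for TKO with a limit of 6500 bp (−0.038) and without J1 regular (−0.00020), J1 2i (−0.0074) or TKO DAXX-KO regular (−0.0030). Its range without single libraries was −0.0074 to 0.0064. The cause of these changes was not tested. Of the values tied to a comparison, 179 kept direction and side of the threshold. Beside these, 62 were marked as moved, 19 as reversed and 3 as stronger. Of those of named elements 49 kept them and 55 lost the call.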

Other observations

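L1Md_T reads were spread over many copies. The 10 copies of highest mean RPKM over the 8 libraries held 3.44% to 4.96% of the family's reads in a library. The top 100 by that mean held 8.18% to 10.7%. Copies kept much of their order across libraries. Over the 4951 tested members, Spearman's rho between 2 libraries ran from 0.872 (J1 DAXX-KO regular with TKO DAXX-KO regular) to 0.985 (TKO regular with TKO 2i). This is a description across copies, which share sequence and length and are not replicates.

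Members lay on 21 chromosomes, with 488 on X and 12 on Y. The X chromosome held 9.80% of the members and 11.01% of all listed elements. The median X member was at 1.07 to 1.18 times the median autosomal one in each of the 8 libraries, and medians of single autosomes ran from 0.924 to 1.33 RPKM in J1 regular, where X was at 1.202. Members of 6400 bp or more made up 27.3% of those on X and 25.4% of those on autosomes. The median distance from a member to its nearest other member was 113 kb, and 308 members (6.18%) had another within 10000 bp.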
